A study of Mus musculus with 4 samples.

Results

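The Hox cluster genes encode homeodomain transcription factors. Their rows were taken from ATAC-seq tables of RAW264.7, a mouse macrophage-like cell line, as every region whose nearest gene, as the authors assigned it, was a Hoxa, Hoxb, Hoxc or Hoxd gene. This gave 26 of 80929 regions, named after 18 of 26614 genes. A transposase in ATAC-seq inserts sequencing adapters into open DNA, so the reads in a region report how open it was. The tested libraries were 2 of cells labelled CuNZ@Gel, a nanozyme hydrogel by the series title, and they were set against 2 of cells labelled Gel. Both were kept for 48 h, and no genotype or other agent is given for either group. The groups rest on the sample titles, because a single treatment text, which names only CuNZ@Gel, is given for every library. Separate cultures are not stated for the replicates. The p-values therefore reflect variation among these 4 libraries, which could be technical. They rest largely on the spread of all features of like level, and less on that of the feature tested.

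In mammals the Hox genes lie in 4 clusters, Hoxa, Hoxb, Hoxc and Hoxd, and the order of the genes along each cluster matches the order of their expression from head to tail in the embryo. Genes of the same number in different clusters are paralogs. Polycomb complexes keep the clusters closed in cells that do not use them, Trithorax and MLL complexes keep them active, and PBX and MEIS proteins bind DNA together with HOX proteins. In blood, Hoxa9, Hoxa10, Hoxb4 and Hoxb8 are known for their action in stem cells and myeloid progenitors, and the expression of many Hox genes falls as myeloid cells mature.

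The gene table used here holds 39 Hox symbols, and 21 of them named no region. Hoxa9, known in myeloid progenitors, was among those with none. In Hoxd, Hoxd12 alone named a region. A region goes to 1 nearest gene, so a gene without one may still border a region named after its neighbour, and whether a region lies in a promoter, exon or intron was not analysed here.

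Promoter sequences from RefSeq (GRCm38.p6, windows around the gene start, most of each before it) were present for 9 of the 18 genes. The 3 shown belong to Hoxa7 and Hoxb1, 2 of the 3 genes that passed the test below, and to Hoxb4, a gene with peaks in all 4 libraries. Capitals mark CG dinucleotides, the sites of DNA methylation, and each runs 5′ to 3′ on the gene's strand.
Hoxa7 (chr6:52218524-52218823, minus strand): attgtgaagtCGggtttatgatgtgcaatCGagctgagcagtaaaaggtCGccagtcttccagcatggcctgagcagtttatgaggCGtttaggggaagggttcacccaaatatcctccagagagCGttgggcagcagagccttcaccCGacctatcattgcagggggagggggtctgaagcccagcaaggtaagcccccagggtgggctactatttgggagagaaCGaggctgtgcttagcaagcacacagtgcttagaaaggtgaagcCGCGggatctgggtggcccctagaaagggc
Hoxb1 (chr11:96365508-96365807, plus strand): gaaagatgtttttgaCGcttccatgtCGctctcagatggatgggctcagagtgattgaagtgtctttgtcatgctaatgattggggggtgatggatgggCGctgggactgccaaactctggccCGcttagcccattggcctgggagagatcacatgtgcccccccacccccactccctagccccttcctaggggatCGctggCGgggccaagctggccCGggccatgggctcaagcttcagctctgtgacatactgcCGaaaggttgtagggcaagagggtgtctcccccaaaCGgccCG
Hoxb4 (chr11:96318017-96318316, plus strand): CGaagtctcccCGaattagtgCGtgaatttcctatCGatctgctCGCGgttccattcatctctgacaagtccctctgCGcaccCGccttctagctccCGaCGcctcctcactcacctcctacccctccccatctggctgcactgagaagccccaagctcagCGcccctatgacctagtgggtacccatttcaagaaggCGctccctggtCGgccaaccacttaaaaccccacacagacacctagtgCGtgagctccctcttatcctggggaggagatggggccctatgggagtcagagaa
The Hoxa7 promoter holds 9 CG dinucleotides, that of Hoxb1 10 and that of Hoxb4 14. The 10 promoter entries of the 9 genes hold 9 to 45, with a median of 13.5, against a median of 7.0 over all 32851 promoters of the same length. In mouse, Hoxb1 is known to act on its own expression through sites bound by HOX and PBX proteins together. The letters TGATNNAT, a HOX-PBX motif searched on both strands, occur in 2 of the 10 entries and in 8.846% of all promoters. In Hoxb1 the match starts at base 89 from the 5′ end and reads TGATGGAT, and in Hoxb8 it reads TGATCAAT on the opposite strand. TAATTA (the homeodomain core), TGANTCA (AP-1), GAGGAAGT (PU.1) and CACGTG (the E-box) occur in 0 of the 10 entries, against 5.291%, 7.808%, 3.202% and 7.15% of all promoters. CCAAT occurs in 5 entries and in 37.41% of all promoters, and TATAAA in 2 entries and in 13.62%. A match is a description of letters and not a binding site. These windows are on another genome build than the regions, so none was placed inside or outside a region.

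Levels are given as RPM, reads in a region per 1000000 effective reads, where a scaling factor of the authors sets each library's effective total. The CuNZ@Gel libraries held 7440996 and 10236621 reads in regions, fewer than the 18843621 and 17915090 of the Gel libraries. Pearson's r over regions was 0.961 between the CuNZ@Gel libraries, 0.986 between the Gel libraries and 0.918 to 0.921 between the groups. Of 12 macrophage markers, 11 named a region, with summed levels of 1106 and 1136 RPM in CuNZ@Gel cells and 1457 and 1472 RPM in Gel cells. Spi1 and Csf1r, which define the lineage, named 7 regions each. Summed levels of fibroblast markers were 49.2 and 47.1 RPM in CuNZ@Gel cells and 43.0 and 41.5 RPM in Gel cells (4 of 5 with a region). Those of lymphocyte markers were 24.0 and 14.6 RPM in CuNZ@Gel cells and 13.9 and 12.5 RPM in Gel cells (3 of 5), and those of epithelial markers 12.4 and 17.5 RPM in CuNZ@Gel cells and 12.1 and 12.9 RPM in Gel cells (3 of 4). Markers that named no region were Fcgr3, Col1a2, Cd3g, Cd79a and Krt18. The part of these markers and of depth in the Hox results was not tested.

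Most Hox regions differed by less than the test could call between CuNZ@Gel and Gel cells. At the deposited scaling the regions named after Hoxb1, a gene of the hindbrain, were higher in sum in CuNZ@Gel cells. This sign turned under 1 of 4 other scalings. The regions named after Hoxa7 and Hoxc8, which pattern the trunk, were lower. The other 15 Hox genes did not pass. Of the 25 Hox regions with enough reads, 1 was called higher, 2 were called lower and 22 were not called by limma (two-sided, Benjamini-Hochberg adjusted p under 0.05). Calls thus covered 12% of tested Hox regions, while 43.1% of all 77014 tested regions were called, 21.2% higher and 21.9% lower. At the level of genes, with RPM summed over a gene's regions, 1 of 18 was higher and 2 were lower. Over all 25900 tested genes, 56.7% were called, 20.5% higher and 36.1% lower. At an unadjusted limma p under 0.05, 5 Hox regions and 4 Hox genes passed. Every feature called after adjustment also passes here, so at least 43.1% of all tested regions and 56.7% of all tested genes did.

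Hox regions stood near the middle of all regions in level. Their median level was the 51.2 percentile of all regions, and their median standard error was 0.219, the same to 3 digits as over all tested regions. A limma standard error is drawn largely from the spread of all regions of like level. The match therefore says little about how closely the Hox regions themselves were measured. Their median absolute log2 change was 0.23, against 0.40 over all tested regions. Their median change was -0.09, against -0.004 for all regions, and that of the 18 genes was -0.11, against -0.10 for all genes. All changes are CuNZ@Gel minus Gel on the log2(RPM + 1) scale, which understates the change of low values. Both CuNZ@Gel libraries lay above both Gel libraries in 3 of the 26 regions and below them in 7, and the groups overlapped in 16. Over all tested regions, 33.7% lay above and 34.6% below, or 68.3% in either direction. A region that was not called is not thereby shown to be equal. Of the 22 uncalled regions, 8 had a 95% interval of the change that lay within 1.5-fold in either direction, and the intervals of the rest reached -1.09 or 1.10 at the widest. In bulk cells, fewer cells with an open region and less opening in each cell cannot be told apart.

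**Figure D1:**
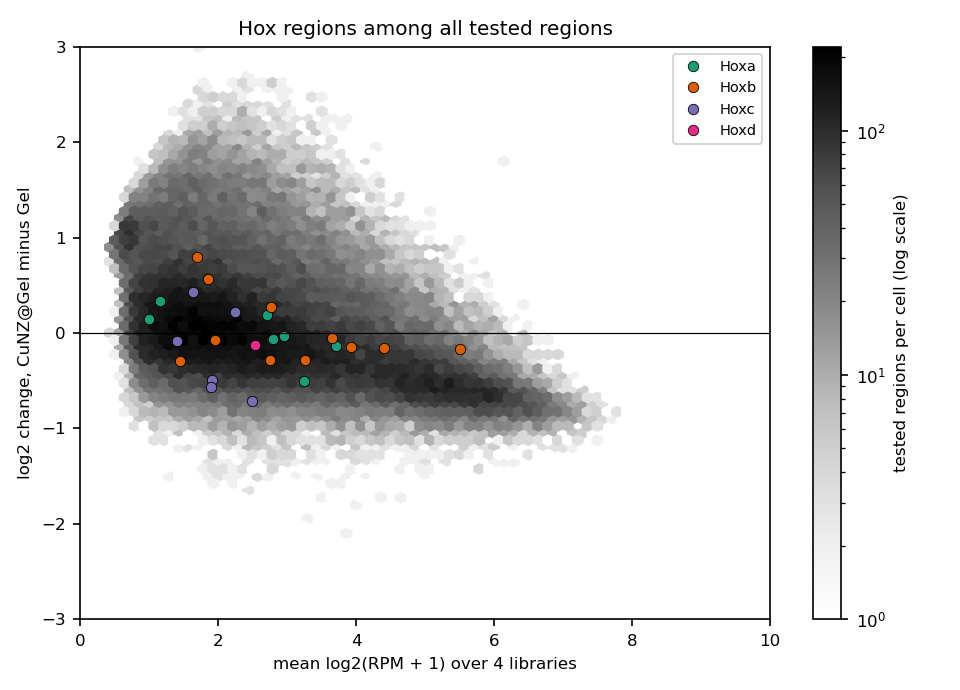
Log2 change (CuNZ@Gel minus Gel, vertical axis) against mean log2(RPM + 1) over the 4 libraries (horizontal axis) for all 77014 tested regions (grey cells, darker with more regions, log colour scale) and the 25 tested Hox regions (points, coloured by cluster). Hox points lie between a change of -0.71 for Hoxc8 and 0.80 for a Hoxb1 region, and the region of Hoxb7, at the 93.6 percentile of level, is the farthest to the right of them.

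The 4 clusters differed in how much of the Hox signal they held. Hoxb held 65.4% of all Hox RPM, Hoxa 22.2%, Hoxc 9.77% and Hoxd 2.58%. Per length of region, mean levels were 11.9 RPM per kb in Hoxb, 8.78 in Hoxa, 6.39 in Hoxc and 5.32 in Hoxd. None of the Hox regions was among the most densely read: the highest stood at the 67.8 percentile of RPM per kb over all regions.

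Between the groups, the summed Hoxb level was 120.4 and 114.3 RPM in CuNZ@Gel cells and 129.9 and 122.7 RPM in Gel cells. Summed Hoxa levels were 42.8 and 36.8 RPM in CuNZ@Gel cells, against 42.8 and 43.4 RPM in Gel cells, which is 39.8 ± 4.26 and 43.1 ± 0.397 RPM (SD, n = 2 each). Hoxc gave 15.5 and 17.1 RPM in CuNZ@Gel cells, and 20.5 and 19.7 RPM in Gel cells, or 16.3 ± 1.15 and 20.1 ± 0.563 RPM (SD, n = 2 each). The single Hoxd region gave 3.88 and 5.24 RPM in CuNZ@Gel cells and 5.54 and 4.58 RPM in Gel cells. The groups did not overlap in the sums of Hoxb and Hoxc, nor, by under 0.01 RPM, in that of Hoxa, and overlapped in Hoxd. No test was made of a sum over a cluster. The non-Hox genes whose profile over the 4 libraries lay nearest to the summed Hoxb profile were Ldaf1, Cdin1 and Acss2os, with Euclidean distances of 0.0039, 0.0069 and 0.0082 between centred log2 values, the smallest of 25882 genes.

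**Figure D2:**
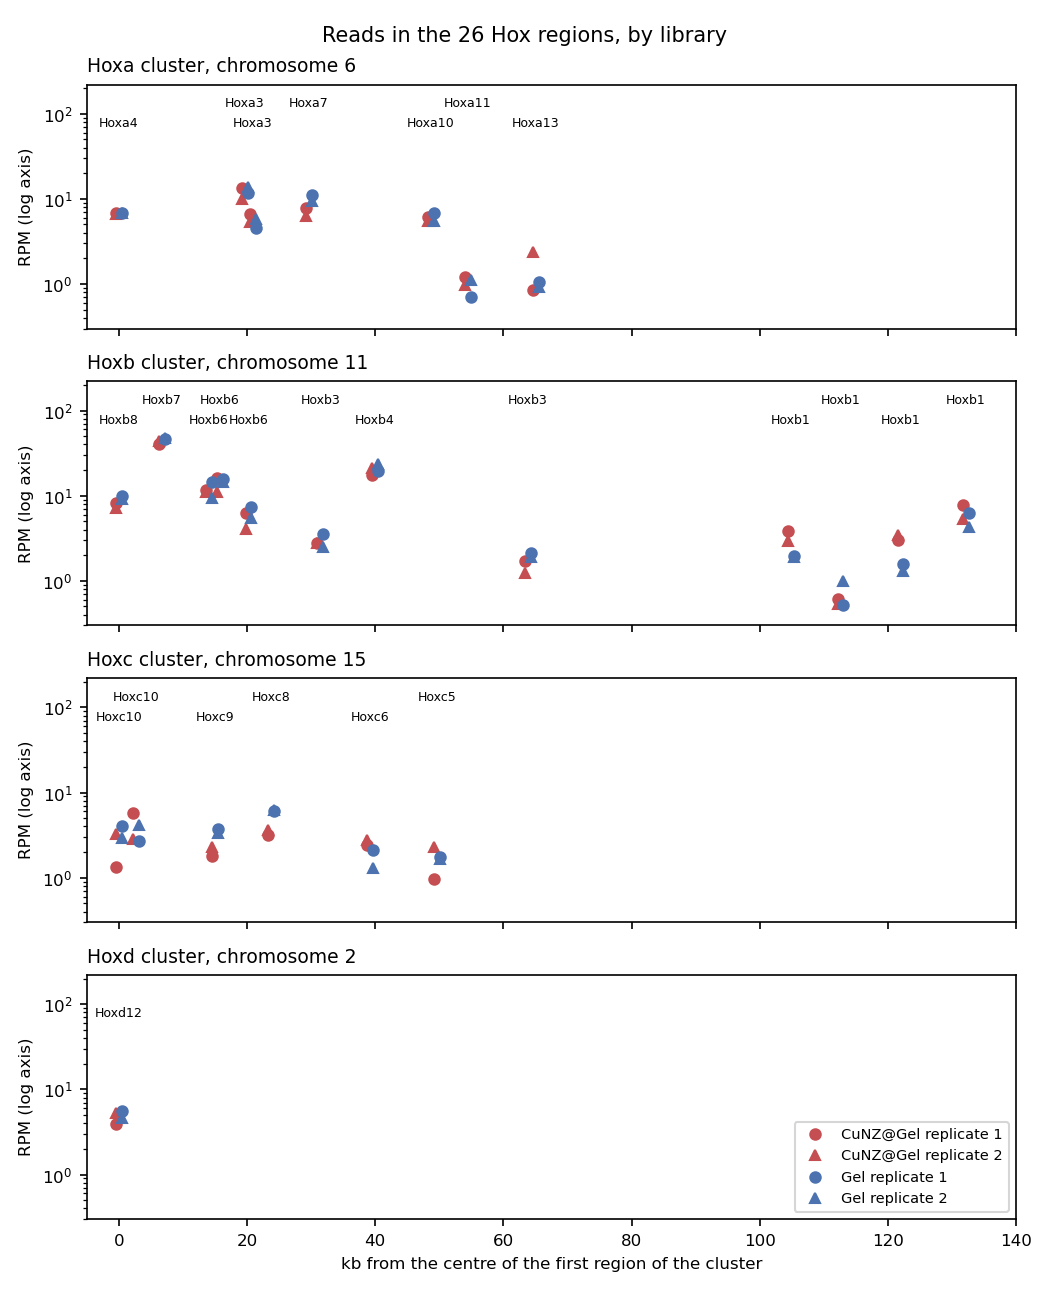
Levels in RPM (vertical axis, log scale) of the 26 Hox regions in each library, by distance in kb from the centre of the first region of the cluster (horizontal axis), with 1 panel per cluster. Circles are replicate 1 and triangles replicate 2, in red for CuNZ@Gel and blue for Gel; Hoxb7 and Hoxb4 are the highest, and the Hoxb1 regions stand apart at the right end of Hoxb.

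By these levels Hoxb is the most open cluster, and its 12 regions, named after 6 genes, span 132902 bases of chromosome 11 (chr11:96169376-96302277, GRCm39). The span is that of the regions and may reach past the genes. Hoxb7, known in the embryo for its expression in the kidney duct, had the most reads of any Hox region. Its region (chr11:96174996-96177988) is 2993 bases wide, beyond the width of 99.98% of all regions. It had 40.7 and 43.5 RPM in CuNZ@Gel cells and 46.7 and 48.0 RPM in Gel cells, from 336 and 490 reads and from 800 and 775 reads. The groups did not overlap, but the log2 change of -0.16 ± 0.087 (SE) did not pass (limma adjusted p over genes = 0.115). This sign depends on the scaling. After cyclic loess the change was 0.12 in the fit over genes, which did not pass, and 0.31 in the fit over regions, which did (adjusted p over regions = 0.00588). It was 0.11 with totals of reads in regions, and -1.20 with the background pileup, where it passed (adjusted p = 1.6e-05). With the background pileup 75.5% of all genes were called lower, and the median change of all genes was -1.06.

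Hoxb4, used to expand blood stem cells, was the next most read. Its region (chr11:96209084-96210391) had 17.5 and 21.0 RPM in CuNZ@Gel cells and 19.6 and 23.4 RPM in Gel cells. The groups overlapped, and the log2 change was -0.15 ± 0.13 (SE), with an adjusted p of 0.340 by limma over genes. The sign turned with totals of reads in regions (0.12), and after cyclic loess it was negative in the fit over genes (-0.10) and positive in that over regions (0.070). Its promoter has the most CG dinucleotides of the 3 printed above. The 3 regions of Hoxb6, a gene of the trunk and limb flank, summed to 34.2 and 26.3 RPM in CuNZ@Gel cells and 37.7 and 29.3 RPM in Gel cells. Here the spread within each group was wider than the difference of the groups, and the largest of the 3 (chr11:96185065-96185975) had 16.2 and 11.2 RPM in CuNZ@Gel cells, against 15.7 and 14.4 RPM in Gel cells.

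Hoxb8, which can hold myeloid progenitors in an immature, dividing state when forced on, had 8.25 and 7.20 RPM in CuNZ@Gel cells and 10.0 and 9.16 RPM in Gel cells. Both CuNZ@Gel values were below both Gel values, with a log2 change of -0.28 ± 0.17 (SE) and a limma adjusted p over genes of 0.175. After cyclic loess the change was -0.43 in the fit over genes, which passed (adjusted p = 0.0421). In the fit over regions it was -0.31 and did not pass (adjusted p = 0.181). With totals of reads in regions it was -0.027. The 2 regions of Hoxb3, a gene of the hindbrain and thyroid, were weak, with a sum of 4.49 and 4.00 RPM in CuNZ@Gel cells and 5.66 and 4.39 RPM in Gel cells, and did not pass.

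Hoxb1 marks a single segment of the embryonic hindbrain, and the 4 regions named after it lie past a gap of 40723 bases from the last Hoxb3 region. These regions are tied to Hoxb1 by nearest name alone, and their distance from its start was not measured. Their sum was 15.3 and 12.3 RPM in CuNZ@Gel cells and 10.3 and 8.48 RPM in Gel cells. Both CuNZ@Gel libraries were above both Gel libraries, and the log2 change was 0.51 ± 0.16 (SE), with a limma adjusted p over genes of 0.0127. The third region (chr11:96291635-96291928) had 3.03 and 3.47 RPM in CuNZ@Gel cells and 1.57 and 1.30 RPM in Gel cells, a log2 change of 0.80 ± 0.27 (SE; limma adjusted p over regions = 0.0141). These values rest on 25 and 39 reads in CuNZ@Gel cells and 27 and 21 reads in Gel cells. The first region (chr11:96274489-96274911) had 3.88 and 2.93 RPM in CuNZ@Gel cells against 1.98 and 1.92 RPM in Gel cells. It did not overlap between groups but missed the threshold (log2 change 0.57, adjusted p = 0.0753). It passed with totals of reads in regions (0.77, adjusted p = 0.0146) and without CuNZ@Gel replicate 2 (0.73, adjusted p = 0.0497). The fourth (chr11:96301643-96302277) had 7.76 and 5.33 RPM in CuNZ@Gel cells and 6.18 and 4.27 RPM in Gel cells, which overlap, and it passed with totals of reads (0.52, adjusted p = 0.0459). The second held 5 and 6 reads in CuNZ@Gel cells and 9 and 16 in Gel cells, too few to be tested.

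The Hoxb1 call depended on single libraries and on the scaling. Without CuNZ@Gel replicate 1 the log2 change of the gene was 0.36 (adjusted p = 0.122), and without Gel replicate 2 it was 0.38 (adjusted p = 0.148). The change was also positive with totals of reads in regions (0.77), after cyclic loess (0.41) and with median-of-ratios factors (0.51), and negative with the background pileup (-0.46, adjusted p = 0.0720), where the median of all genes was -1.06. The third region alone lost its call without CuNZ@Gel replicate 2 (0.73, adjusted p = 0.0607), Gel replicate 1 (0.88, adjusted p = 0.0593) or Gel replicate 2 (0.72, adjusted p = 0.137), and also after cyclic loess (0.57, adjusted p = 0.105) and with the background pileup (0.09, adjusted p = 0.805). Whether the regions named after Hoxb1 differ from the other Hoxb regions was not tested.

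**Figure D3:**
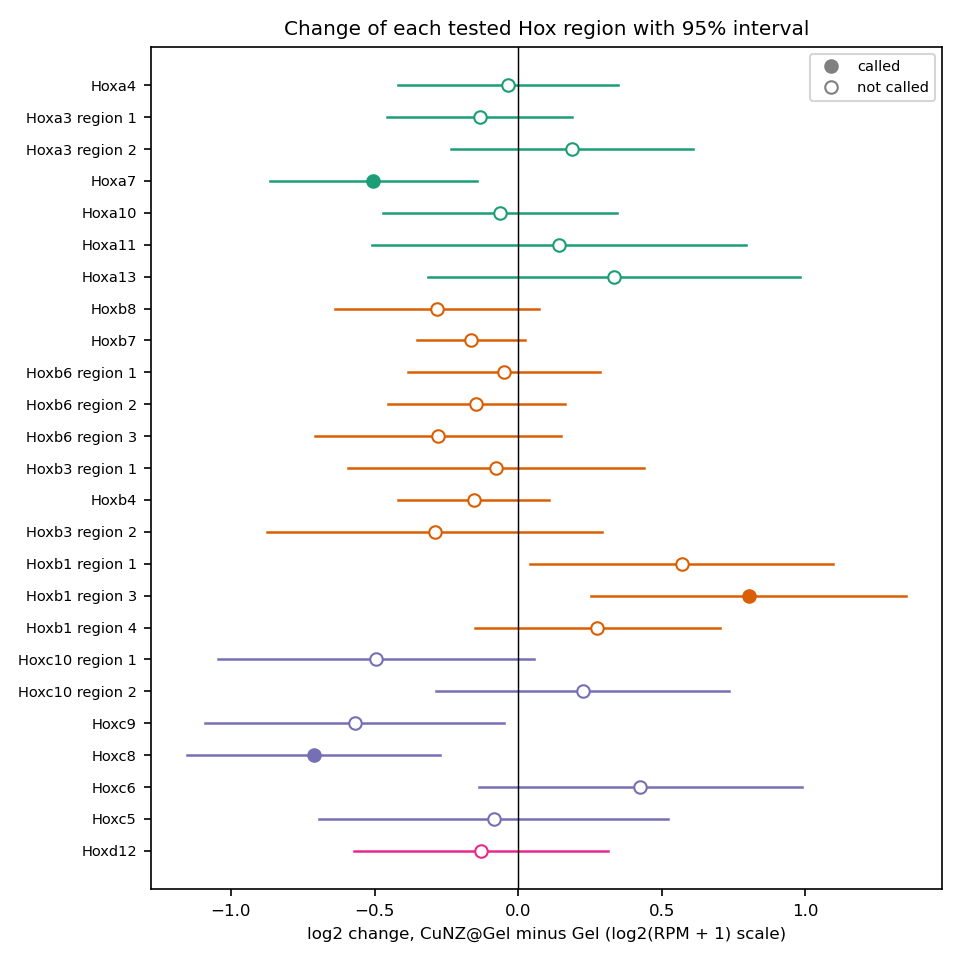
Log2 change (CuNZ@Gel minus Gel, horizontal axis) of the 25 tested Hox regions, in cluster order down the page, with 95% intervals as lines. Filled points passed the test: Hoxb1 region 3 at 0.80, Hoxa7 at -0.50 and Hoxc8 at -0.71, and most open points have intervals that cross 0.

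In Hoxa, 7 regions of 6 genes spanned 65475 bases of chromosome 6 (chr6:52168824-52234298), and Hoxa7 was lower in CuNZ@Gel cells. Hoxa7 shapes the trunk skeleton and is a known target of MLL complexes in blood. Its region (chr6:52198354-52199096) had 7.76 and 6.22 RPM in CuNZ@Gel cells and 11.1 and 9.53 RPM in Gel cells. Both CuNZ@Gel libraries lay below both Gel libraries, with a log2 change of -0.50 ± 0.18 (SE) and a limma adjusted p over genes of 0.0216. The call was lost without CuNZ@Gel replicate 2 (-0.36, adjusted p = 0.119) and without Gel replicate 1 (-0.41, adjusted p = 0.213). It was also lost with totals of reads in regions (-0.25, adjusted p = 0.258), and it passed after cyclic loess (-0.66, adjusted p = 0.00366).

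The other Hoxa genes did not pass. The 2 regions of Hoxa3, a gene of the pharyngeal arches and thymus, lie 231 bases apart. The first (chr6:52188303-52189224) had 13.3 and 9.86 RPM in CuNZ@Gel cells and 11.8 and 13.7 RPM in Gel cells. The second had 6.67 and 5.33 RPM in CuNZ@Gel cells and 4.49 and 5.82 RPM in Gel cells. In both, the groups overlapped. Hoxa4, a gene of the neck vertebrae, had nearly equal levels, 6.79 and 6.57 RPM in CuNZ@Gel cells and 6.88 and 6.87 RPM in Gel cells. Its 95% interval of the log2 change ran from -0.42 to 0.35. Hoxa10, a factor of myeloid progenitors, had 6.19 and 5.42 RPM in CuNZ@Gel cells and 6.82 and 5.44 RPM in Gel cells (log2 change -0.06, interval -0.47 to 0.34). Hoxa11 and Hoxa13, which pattern the limb, were barely read. Hoxa11 had 1.21 and 0.978 RPM in CuNZ@Gel cells and 0.699 and 1.11 RPM in Gel cells. Hoxa13 had 0.849 and 2.40 RPM in CuNZ@Gel cells, far apart from each other, and 1.05 and 0.928 RPM in Gel cells. Without CuNZ@Gel replicate 1 Hoxa13 passed (0.77, adjusted p = 0.0416).

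Hoxc was the weakest of the clusters with more than 1 region, and it held the largest called Hox fall. Its 6 regions of 5 genes spanned 50112 bases of chromosome 15 (chr15:102872060-102922171). Hoxc8, a gene of the thoracic skeleton and of motor neurons to the forelimb, had 3.15 and 3.64 RPM in CuNZ@Gel cells and 6.13 and 6.25 RPM in Gel cells (chr15:102895581-102896293). These come from 26 and 41 reads in CuNZ@Gel cells and 105 and 101 reads in Gel cells. The groups were far apart relative to their spread, with a log2 change of -0.71 ± 0.21 (SE) and a limma adjusted p over genes of 0.00768. The call was lost without Gel replicate 1 (-0.72, adjusted p = 0.0632) and without Gel replicate 2 (-0.70, adjusted p = 0.0770), although the change hardly moved. With totals of reads in regions the change was -0.48 (adjusted p = 0.0672).

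Its neighbour Hoxc9, a gene of thoracic motor neurons, had 1.82 and 2.31 RPM in CuNZ@Gel cells and 3.73 and 3.34 RPM in Gel cells. The groups did not overlap, but the log2 change of -0.57 ± 0.25 (SE) missed the threshold (limma adjusted p over genes = 0.0613). It passed after cyclic loess (-0.86, adjusted p = 0.00757) and without CuNZ@Gel replicate 2 (-0.69, adjusted p = 0.0387). Hoxc10, a gene of the lumbar spinal cord, had 2 regions. The first (chr15:102872060-102872448) had 1.33 and 3.29 RPM in CuNZ@Gel cells and 4.08 and 2.91 RPM in Gel cells, and the second had 5.82 and 2.84 RPM in CuNZ@Gel cells and 2.68 and 4.21 RPM in Gel cells. Their sums, 7.16 and 6.13 RPM in CuNZ@Gel cells and 6.77 and 7.12 RPM in Gel cells, were closer than either region. Neither region passed at the deposited scaling (limma adjusted p over regions = 0.146 and 0.517). The first passed as lower after cyclic loess (-0.69, adjusted p = 0.0392), and its change was -0.93 without CuNZ@Gel replicate 2. Hoxc6, a gene of forelimb motor neurons, had 2.42 and 2.76 RPM in CuNZ@Gel cells and 2.10 and 1.30 RPM in Gel cells. It lay higher without overlap and did not pass (log2 change 0.43, adjusted p over genes = 0.201). Hoxc5, a gene of the neck and upper trunk, had 0.970 and 2.31 RPM in CuNZ@Gel cells and 1.75 and 1.67 RPM in Gel cells, which overlap.

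Hoxd had a region for Hoxd12 alone, a gene of the digits (chr2:74502928-74503831), with the RPM values given for the cluster. Its log2 change was -0.13 ± 0.22 (SE; limma adjusted p over genes = 0.644).

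By position in the paralog order, 1 of 3 anterior genes (numbers 1 to 3) was called higher and 0 lower. Of 9 central genes (numbers 4 to 8), 0 were called higher and 2 lower, and of 6 posterior genes (numbers 9 to 13), 0 were called either way. Over all genes 20.5% were called higher and 36.1% lower. Summed central levels were 121.7 and 119.5 RPM in CuNZ@Gel cells and 141.9 and 135.5 RPM in Gel cells. Anterior sums were 39.8 and 31.5 RPM in CuNZ@Gel cells and 32.2 and 32.4 RPM in Gel cells, and posterior sums 21.1 and 22.5 RPM in CuNZ@Gel cells and 24.6 and 22.5 RPM in Gel cells. The central sums did not overlap, the posterior sums missed an overlap by under 0.05 RPM, and the anterior sums overlapped. Hoxa7 and Hoxc8 have paralogs that did not pass, Hoxb7 and Hoxb8, both with negative changes at the deposited scaling.

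The peaks, which the authors called on each library alone, give a second view. A peak stood in all 4 libraries in 9 of the 26 Hox regions, or 34.6%, against 39.6% of all 80929 regions. These were 1 region of Hoxa4, 2 of Hoxa3, 3 of Hoxb6 and 1 each of Hoxb7, Hoxb4 and Hoxb1. Regions with a peak in both Gel libraries and in neither CuNZ@Gel library were 3 (11.5%), of Hoxa10, Hoxc10 and Hoxc9, against 11.0% of all regions. The reverse was seen in 0 of 26, against 2.28% of all regions. Hox regions with a peak numbered 11 and 17 in the CuNZ@Gel libraries and 22 and 20 in the Gel libraries. All peaks numbered 42612 and 53273 in the CuNZ@Gel libraries and 61757 and 59251 in the Gel libraries, and reads in regions differed the same way, so the part of depth in these peak counts was not tested.

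The fold enrichment of a peak is the authors' own value and ranks peaks within a list. In the Gel libraries the highest Hox folds were those of Hoxb8, at 14.8 and 16.6. Hoxa7 had a peak of 6.65 in CuNZ@Gel replicate 2 and none in replicate 1, and peaks of 14.1 and 14.4 in the Gel libraries. Hoxc8 likewise had 5.24 in CuNZ@Gel replicate 2 and none in replicate 1, and 13.7 and 12.1 in the Gel libraries. The region of Hoxb7, the most read, had low folds, at 4.75 and 5.31 in the CuNZ@Gel libraries and 5.48 and 6.13 in the Gel libraries. Hoxb1 region 3, called higher in CuNZ@Gel cells, had a peak of 5.80 in CuNZ@Gel replicate 2, and one of 3.99 in Gel replicate 1.

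**Figure D4:**
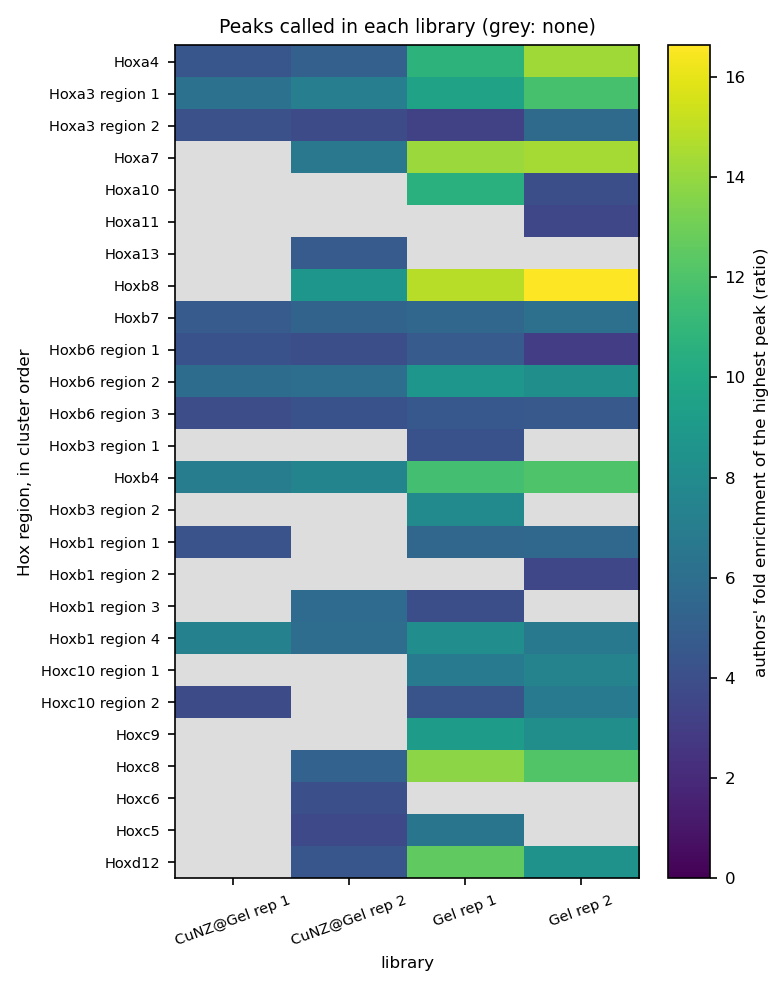
The authors' fold enrichment (colour, a ratio) of the highest peak in each Hox region (rows, in cluster order) and library (columns), with grey where the library had no peak. Peaks cover 11 and 17 regions in the CuNZ@Gel columns and 22 and 20 in the Gel columns, and the highest folds are those of Hoxb8, Hoxa7, Hoxa4 and Hoxc8 in Gel.

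How many Hox genes are called depends on how the libraries are set against each other. At the deposited scaling 1 of 18 was higher and 2 were lower, and with median-of-ratios factors the counts were also 1 and 2. After cyclic loess, a correction that takes out any drift of change along the range of levels, 1 was higher and 4 lower, with Hoxb8 and Hoxc9 beside Hoxa7 and Hoxc8. Of all genes 24.2% were then higher and 22.8% lower, so the count of lower Hox genes was near that share. With totals of reads in regions 1 was higher and 0 lower, where 34.3% of all genes were higher and 18.7% lower. With the background pileup, the background coverage recovered from the deposited folds, 0 were higher and 14 lower. This too was near the share of all genes, of which 2.77% were higher and 75.5% lower, and the median change was -1.01 for the 18 Hox genes and -1.06 for all genes. With totals of reads the median of all genes was 0.15 and that of the Hox genes 0.12. After cyclic loess the medians were -0.03 for all genes and -0.24 for the Hox genes.

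**Figure D5:**
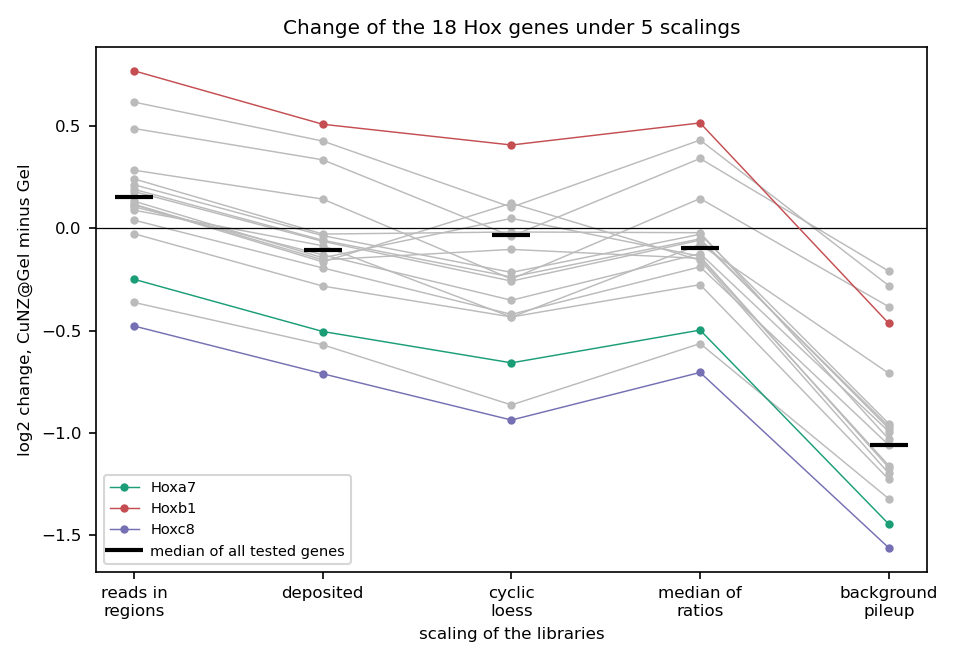
Log2 change (CuNZ@Gel minus Gel, vertical axis) of each of the 18 Hox genes under 5 scalings of the libraries (horizontal axis), with black bars at the median of all tested genes. Hoxb1 is above 0 under 4 scalings and at -0.46 with the background pileup, and Hoxa7 and Hoxc8 are below 0 under all 5.

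Genes of the proteins that act on Hox clusters are not members of them and stand here as context. At the deposited scaling many of these genes were lower, beside the 36.1% of all genes called lower. Of 30 Polycomb genes, 0 were called higher and 19 lower, with a median log2 change of -0.34, against -0.10 for all genes. Rnf2, which encodes a catalytic subunit of the PRC1 complex, had 30.8 and 32.3 RPM in CuNZ@Gel cells and 48.8 and 61.0 RPM in Gel cells (limma adjusted p = 2.57e-06). After cyclic loess 6 Polycomb genes were higher and 12 lower, where 24.2% of all genes were higher and 22.8% lower. With totals of reads 5 were higher and 11 lower, where the shares of all genes were 34.3% and 18.7%. Of 19 Trithorax and MLL genes with a region, 1 was higher and 16 were lower, against 4 and 9 after cyclic loess. Kmt2a, which encodes MLL1, had 44.8 and 42.2 RPM in CuNZ@Gel cells and 64.0 and 62.1 RPM in Gel cells (limma adjusted p = 1.49e-05). Dot1l, which encodes the H3K79 methyltransferase, was the 1 higher, with 191.3 and 192.0 RPM in CuNZ@Gel cells and 148.1 and 164.2 RPM in Gel cells, and it turned with the background pileup (-0.76).

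Of 10 genes of CTCF and cohesin, which fold the clusters into domains, 0 were higher and 10 lower, with a median of -0.53. Of all genes 20.5% were higher and 36.1% lower. After cyclic loess 0 of the 10 were higher and 5 lower, with a median of -0.20, beside 24.2% and 22.8% of all genes. Ctcf had 55.5 and 70.7 RPM in CuNZ@Gel cells and 87.9 and 119.3 RPM in Gel cells (limma adjusted p = 2.25e-05). The 10 genes of PBX, MEIS and related cofactors split into 3 higher and 5 lower, beside the same 20.5% and 36.1%. After cyclic loess 1 was higher and 5 lower, beside 24.2% and 22.8%. Pbx4 had 18.6 and 23.7 RPM in CuNZ@Gel cells and 12.9 and 10.1 RPM in Gel cells (limma adjusted p = 0.000129), and the change turned with the background pileup (-0.17). Meis2 had 14.8 and 14.7 RPM in CuNZ@Gel cells and 25.8 and 24.0 RPM in Gel cells (limma adjusted p = 5.69e-05). The groups do not overlap in any of these 6 genes.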

How the data were processed

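ATAC-seq was done on RAW264.7 cells at 48 h, with 2 CuNZ@Gel and 2 Gel libraries grouped by title. The submitters' processing notes list MACS2 2.2.8, Picard 2.27.5, SAMtools 1.17, Bowtie2 2.3.4.3, fastp 0.23.1 and GRCm39, without their roles. The authors deposited a log2 value per region and library, with the region's nearest gene. Each deposited log2 value was taken to be log2(RPM + 1), since undoing it turned 100% of low values into read numbers within 0.1 of an integer. From the totals, the authors' scaling factors were 1.11 and 1.10 for CuNZ@Gel and 0.910 and 0.902 for Gel.

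Peak lists deposited for single libraries give a score, a fold enrichment (a ratio over background) and the −log10 of a p-value and a q-value. The deposited folds, scores and −log10 values described and filtered peaks within a list. Peaks at most 1 base apart were merged into 80929 regions, equal in number and order to the value rows, and so placed each row on GRCm39, counting from 1. A RefSeq gene table held 25127 of 26614 gene names and a chromosome for the gene of 77103 regions, of which 77101 matched. Another 4 rows without a name were not tested.

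Regions and genes, each gene as log2(summed RPM + 1), were tested with limma 3.58.1 (R 4.3.3) with an intensity trend, two-sided, at a Benjamini-Hochberg threshold of 0.05 over the whole table. Features needed 10 reads at the median depth (0.71 RPM before scaling) in 2 libraries and 15 reads in all. A sum can hide regions that move apart. Genes named by rule were the 2 of highest level per cluster, called genes, Hoxa9, Hoxa10, and genes with the highest or called regions. Other members were named after their values were seen. Members and lists were chosen with earlier results of these data known. Alternatives were other scalings and filters, a pseudocount of 0.25, voom on recovered reads, replicate numbers as a block and leaving out each library.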

Additional observations from a re-analysis of the deposited data

How the results depend on the processing

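Each change here is CuNZ@Gel minus Gel (log2). Median-of-ratios factors, no filter, the stricter filter, the pseudocount of 0.25, voom and the replicate block all left 1 Hox region and 1 Hox gene called higher and 2 of each called lower. Over the whole table these settings called 17.7% to 21.7% of regions higher and 20.9% to 24.8% lower. For genes the shares were 19.0% to 21.6% and 35.2% to 38.3%. Cyclic loess called 1 region higher, that of Hoxb7 in place of Hoxb1, and 4 lower (1 and 4 genes). The lower regions were those of Hoxa7, Hoxc8 and Hoxc9 and the first of Hoxc10, while the lower genes held Hoxb8 in place of Hoxc10. The shares over the whole table of tested regions were then 18.8% and 13.8%. Scaling by read totals gave 3 Hox regions up and 0 down (1 and 0 genes), beside 30% and 11.9% over the whole table. The background pileup gave 0 up and 20 down (0 and 14 genes), beside 4.85% and 60.6%. Which Hox regions and genes were called changed with the library left out. Without CuNZ@Gel replicate 1 the change was 0.36 for Hoxb1 and 0.77 for Hoxa13. Without CuNZ@Gel replicate 2 it was -0.36 for Hoxa7 and -0.69 for Hoxc9. No call of a Hox gene was lost or gained with the replicate block, in which Hoxb1 had an adjusted p of 0.00476, Hoxa7 of 0.0136 and Hoxc8 of 0.00464. Over tested regions, the replicate 1 minus replicate 2 differences of the 2 groups correlated at r = 0.016. This shows little shared deviation by number, and cannot tell whether same-numbered libraries were prepared together. Peaks with −log10 q of at least 5 left 5 regions with a peak in all 4 libraries, in place of 9. Regions with a peak in at least 1 library of CuNZ@Gel and none of Gel were then 1, in place of 2, and those with the reverse 11, in place of 7. Peaks covering at least 0.5 of the region left 2, 2 and 13. Before these cuts, 73.1% of Hox regions and 71.2% of all regions had a peak in at least 1 CuNZ@Gel library. For at least 1 Gel library the shares were 92.3% and 85.6%. Shares of all regions after the cuts were not computed, so the counts after them cannot be read as particular to Hox regions. With the background pileup the sign turned for the Hoxa3 region starting at 52189456 (-0.71), the Hoxb1 regions at 96274489 (-0.19) and 96301643 (-0.63), the second Hoxc10 region (-0.61), Hoxa11 (-0.38), Hoxa13 (-0.21), Hoxb1 (-0.46) and Hoxc6 (-0.28). After cyclic loess it turned for Hoxa11 (-0.25), Hoxa13 (-0.039), Hoxb6 (0.048) and Hoxb7 (0.12), and in the fit over regions also for Hoxb4 (0.070). With totals of reads it turned for the Hoxa3 region at 52188303 (0.13), Hoxb6 regions at 96183078 (0.21) and 96185065 (0.12), the Hoxb3 region at 96200977 (0.13), Hoxa10 (0.18), Hoxa3 (0.24), Hoxa4 (0.21), Hoxb3 (0.039), Hoxb4 (0.12), Hoxb6 (0.13), Hoxb7 (0.11), Hoxc10 (0.19), Hoxc5 (0.088) and Hoxd12 (0.10). The cause was not tested. Without 1 library each, values that turned ran from -0.33 to 0.067 for the Hoxa3 region at 52188303, -0.33 to 0.24 and -0.40 to 0.10 for those Hoxb6 regions, -0.27 to 0.12 for that Hoxb3 region and -0.19 to 0.64 for the second Hoxc10 region. For genes they ran from -0.20 to 0.076 for Hoxa10, -0.015 to 0.30 for Hoxa11, -0.10 to 0.77 for Hoxa13, -0.22 to 0.16 for Hoxa3, -0.33 to 0.039 for Hoxb6, -0.16 to 0.038 for Hoxc10, -0.46 to 0.29 for Hoxc5 and -0.31 to 0.048 for Hoxd12. A Hox region held 5 to 800 reads in a library, which limits the weak ones. Intervals rest largely on the spread of all features of like level between these libraries, and do not cover separate cultures. Where 1 library was left out, the lone library was assumed to vary like the other group.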

Other observations

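Around the clusters, within 100 kb of the outermost Hox regions, 30 regions were named after other genes. Of the 13 beside Hoxa, 12 were tested, with 2 higher and 1 lower in CuNZ@Gel cells. Beside or inside Hoxb, 1 of 10 was higher, beside Hoxc 1 of 3 was higher, and beside Hoxd 2 of 4 were lower. Together 4 of 29 tested were higher and 3 lower, beside 21.2% and 21.9% of all tested regions. After cyclic loess 2 were higher and 2 lower (18.8% and 13.8% of all regions), and with totals of reads 8 were higher and 2 lower (30% and 11.9%). The largest in reads was a region of Hotairm1, a noncoding RNA gene at the end of the Hoxa cluster known to be induced as myeloid cells mature (chr6:52134930-52136361). It had 41.6 and 45.3 RPM in CuNZ@Gel cells and 70.1 and 73.0 RPM in Gel cells, a log2 change of -0.71 ± 0.086 (SE; limma adjusted p over regions = 1.56e-09). The other 2 regions of Hotairm1 overlapped between groups, the larger with 14.3 and 12.4 RPM in CuNZ@Gel cells and 14.5 and 13.7 RPM in Gel cells. A region of Hotairm2 (chr6:52127398-52128172) was higher, with 6.31 and 6.22 RPM in CuNZ@Gel cells and 2.80 and 3.28 RPM in Gel cells (log2 change 0.85, limma adjusted p over regions = 0.00148). After cyclic loess the fall of the Hotairm1 region was -0.16 and did not pass (adjusted p = 0.16), and with totals of reads it was -0.43 (adjusted p = 5.38e-05). The Hotairm2 region also passed after cyclic loess (0.71, adjusted p = 0.00933) and with totals of reads (1.08), and was at -0.01 with the background pileup.

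Of 29 genes listed as lying beside or within the clusters, 16 had a region. Of these, 0 were called higher and 8 lower, beside 20.5% and 36.1% of all genes. Cbx5, which encodes the heterochromatin protein HP1 alpha, had 113.7 and 118.2 RPM in CuNZ@Gel cells and 206.1 and 193.5 RPM in Gel cells (limma adjusted p over genes = 5.20e-10). Skap2, a signalling adaptor of macrophages beside Hoxa, had 88.9 and 93.3 RPM in CuNZ@Gel cells and 148.9 and 139.1 RPM in Gel cells (limma adjusted p over genes = 2.12e-08). After cyclic loess the list gave 1 higher and 5 lower, beside 24.2% and 22.8% of all genes. The change was then -0.34 for Cbx5 and -0.24 for Skap2. With totals of reads the list gave 2 higher and 6 lower, beside 34.3% and 18.7% of all genes.

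The clusters also hold microRNA genes, and miR-196 is known in mouse to target Hoxb8 messenger RNA. Both miRNAs that named a region are shown from RefSeq (GRCm38.p6), 5′ to 3′, with the seed, bases 2 to 8, in capitals.
miR-196a-5p: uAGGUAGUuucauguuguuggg
miR-10b-5p: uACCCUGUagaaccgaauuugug
The 2 regions named after Mir196a-1 had 4.97 and 5.77 RPM in CuNZ@Gel cells against 3.44 and 4.39 RPM in Gel cells, and 5.09 and 5.42 RPM in CuNZ@Gel cells against 4.96 and 6.81 RPM in Gel cells. The region of Mir10b had 2.79 and 3.38 RPM in CuNZ@Gel cells and 2.86 and 1.48 RPM in Gel cells. None of the 3 passed at the deposited scaling (limma adjusted p over regions = 0.174, 0.679 and 0.252). The first Mir196a-1 region passed as higher with totals of reads (0.61, adjusted p = 0.0223), and the second as lower with the background pileup (-1.01, adjusted p = 0.000427). Of all tested regions, 30% were higher with totals of reads. With the background pileup 60.6% were lower, and the median change of all tested regions was -0.82.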
